A study of Mus musculus with 16 samples.

Results

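The cell cycle and DNA replication genes are the subject here: 54 genes chosen by name from the 23356 genes of one expression table made from mouse bone marrow-derived dendritic cells (BMDCs). They were sorted by known function into 8 groups that follow a dividing cell, from the licensing of replication origins and the replication fork, through the G1/S and G2/M regulators, to the spindle, the centromere and the separation of chromosomes. All 54 were found in the table with a quantification status of OK in every condition, and 53 were at 1 FPKM or more in all 8 conditions (FPKM, a fragment count scaled for transcript length and library size). The exception was *Cenpf*, which encodes a large kinetochore protein.

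A cell that prepares to divide loads the MCM helicase onto its replication origins in G1, and cyclin E with CDK2 then helps to start DNA synthesis. E2F transcription factors, held in check by the RB family, drive many genes of G1/S and of replication. Genes of G2 and mitosis are switched on later by the B-MYB and FOXM1 factors with the MuvB complex, and the anaphase-promoting complex finally has cyclin B destroyed. BMDC cultures start from marrow progenitors that divide under GM-CSF, while dendritic cells that have matured divide little.

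The series measured mRNA in 16 libraries, with 2 samples for each of 8 conditions. Marrow from wild-type mice and from *Tmem173*-/-, *Irf1*-/- and *Irf3/7*-/- knockout mice, all given as C57BL/6, was grown for 6 days with GM-CSF and IL-4 at 10 ng/ml each. The labels give no age, and the study's methods give a range of weeks in young adult life for all of its mice. The cells were then left untreated or given c-di-GMP, a bacterial cyclic dinucleotide, for 18 h. The dose is 25 ug/ml in the labels, while the study's description of this experiment names a higher one, and which was used cannot be told here. *Tmem173* encodes STING, the sensor of c-di-GMP, and *Irf1*, *Irf3* and *Irf7* encode interferon regulatory factors. The design asks which part of the response needs the sensor, which needs IRF1 and which needs IRF3 and IRF7 as a pair. The labels give the genotypes as knockout mice, and the growth protocol names no step that sorts the cells. In each pair of values below, the first is the untreated and the second the treated condition. *Tmem173* itself was at 103 and 118 FPKM in wild-type, 8.97 and 7.49 FPKM in *Tmem173*-/-, 77.0 and 97.1 FPKM in *Irf1*-/-, and 86.2 and 80.0 FPKM in *Irf3/7*-/-. *Irf1* was at 149 and 245 FPKM in wild-type, 24.1 and 23.3 FPKM in *Tmem173*-/-, 25.9 and 116 FPKM in *Irf1*-/-, and 164 and 262 FPKM in *Irf3/7*-/-. *Irf3* was at 19.9 and 15.8 FPKM in wild-type, 20.7 and 17.0 FPKM in *Tmem173*-/-, 20.2 and 18.8 FPKM in *Irf1*-/-, and 7.74 and 20.2 FPKM in *Irf3/7*-/-. *Irf7* was at 15.2 and 687 FPKM in wild-type, 3.17 and 3.37 FPKM in *Tmem173*-/-, 6.22 and 969 FPKM in *Irf1*-/-, and 1.07 and 4.97 FPKM in *Irf3/7*-/-. Each gene was below wild-type in its own knockout, except *Irf3* in treated *Irf3/7*-/- BMDCs, at 20.2 against 15.8 FPKM, which goes against the label while *Irf7* in the same condition does not. Which part of each gene was deleted is not given in the sources used here, so reads left in a knockout check nothing, and genotypes are named below as the labels give them.

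Each condition has 1 deposited value per gene, made by the authors from its 2 samples, with a lower and an upper confidence bound, so neither a mean nor a spread over samples can be given and no p-value was computed. For the 4710 genes that reached 10 FPKM in all conditions, a bound typically lay 25.2% to 25.7% away from its value (median). A call, higher or lower, required that the log2 ratio of FPKM + 0.1 be beyond 1 in size, that the 2 intervals not overlap and that the gene reach 1 FPKM in one of the conditions. "Rose" and "fell" are used below only for genes called in this way, and every log2 change is on that FPKM + 0.1 scale. The libraries carried the transcripts of dendritic cells, including *Cd74*, *H2-Aa* and *Itgax*, but the conditions also differed in the markers of other cells. Summed over 9 neutrophil markers the level was 4102 FPKM in untreated and 1917 FPKM in treated wild-type BMDCs, 20114 and 14682 FPKM in *Tmem173*-/-, 2579 and 1426 FPKM in *Irf1*-/-, and 2334 and 1457 FPKM in *Irf3/7*-/-. Summed over 16 T and NK cell markers it was 493 and 429 FPKM in wild-type, 9.69 and 8.35 FPKM in *Tmem173*-/-, 20.9 and 25.0 FPKM in *Irf1*-/-, and 537 and 1267 FPKM in *Irf3/7*-/-. A sum can rest on a few high markers. The median T and NK marker was at 6.44 and 3.45 FPKM in wild-type and 11.2 and 13.0 FPKM in *Irf3/7*-/-. With c-di-GMP, 2 of the 14 tested in *Irf3/7*-/- were called higher and 2 lower, beside 10.2% and 7.68% of all genes tested. The median log2 change of these 14 markers was 0.80, with 10 above 0. Between treated *Irf3/7*-/- and treated wild-type, 12 of 13 tested were called higher and none lower, beside 4.61% and 2.69% of all genes. Between untreated *Tmem173*-/- and untreated wild-type, 13 of 14 were called lower and 1 higher, beside 5.95% and 5.04%. The median neutrophil marker in wild-type was at 18.8 and 12.2 FPKM. For 10 macrophage markers the sum was 223 and 344 FPKM in wild-type and 630 and 589.5 FPKM in *Tmem173*-/-. It was 114 and 104 FPKM in *Irf1*-/-, and 221 and 240 FPKM in *Irf3/7*-/-. For 9 basophil and mast cell markers it was 73.7 and 164 FPKM in wild-type and 74.3 and 60.1 FPKM in *Tmem173*-/-. There it was 65.4 and 137 FPKM in *Irf1*-/-, and 176 and 280 FPKM in *Irf3/7*-/-. The 8 markers of early progenitors summed to 25.9 and 22.2 FPKM in wild-type and 33.4 and 31.6 FPKM in *Tmem173*-/-. Their sum was 51.3 and 35.7 FPKM in *Irf1*-/-, and 43.1 and 52.2 FPKM in *Irf3/7*-/-. The part of these cells in the results was not tested, and in bulk RNA fewer dividing cells and less RNA per dividing cell cannot be told apart.

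In wild-type BMDCs most of the cell cycle genes were lower after c-di-GMP. Of the 54, 45 fell and 1 rose, against 9.96% of all 11201 genes tested called lower and 10.5% called higher. The median log2 change of the 54 genes was -1.63, beside 0.00 for all genes tested, and the median gene kept 32.1% of its untreated FPKM. Their untreated levels ran from 3.16 to 197 FPKM with a median of 26.5 FPKM. The 8 genes that were not called were *Mki67*, *Ccne2*, *Cdk2*, *Cdt1*, *Gins2*, *Pcna*, *Tyms* and *E2f1*, and 7 of these belong to G1/S and replication.

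In *Tmem173*-/- BMDCs none of the 54 genes rose or fell. Across all 10867 genes tested in this genotype, 0.046% were called higher and 0.0092% lower, so few genes of any kind were called. The median log2 change of the cell cycle genes was -0.07, the median gene kept 95.4% of its untreated FPKM, and single genes ran from 70.5% for *Birc5* to 146% for *Cenpf*. 

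Most of the genes also fell in *Irf1*-/- and in *Irf3/7*-/- BMDCs. In *Irf1*-/- BMDCs 39 genes fell and none rose, beside 7.81% of 11164 genes tested called lower and 9.67% called higher, with a median log2 change of -1.50 and a median of 34.4% of the untreated FPKM kept. In *Irf3/7*-/- BMDCs 37 genes fell and none rose, beside 7.68% of 11283 genes called lower and 10.2% called higher, with a median log2 change of -1.22 and 42.5% kept. There were 32 genes that fell in wild-type, *Irf1*-/- and *Irf3/7*-/- BMDCs alike, 14 that fell in some of these genotypes, and 8 that fell in none. For 51 of the 54 genes, the treated FPKM in all 3 of these genotypes lay below every one of the other 5 values, and for 35 genes the confidence intervals of the 2 sets were also apart.

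**Figure D1:**
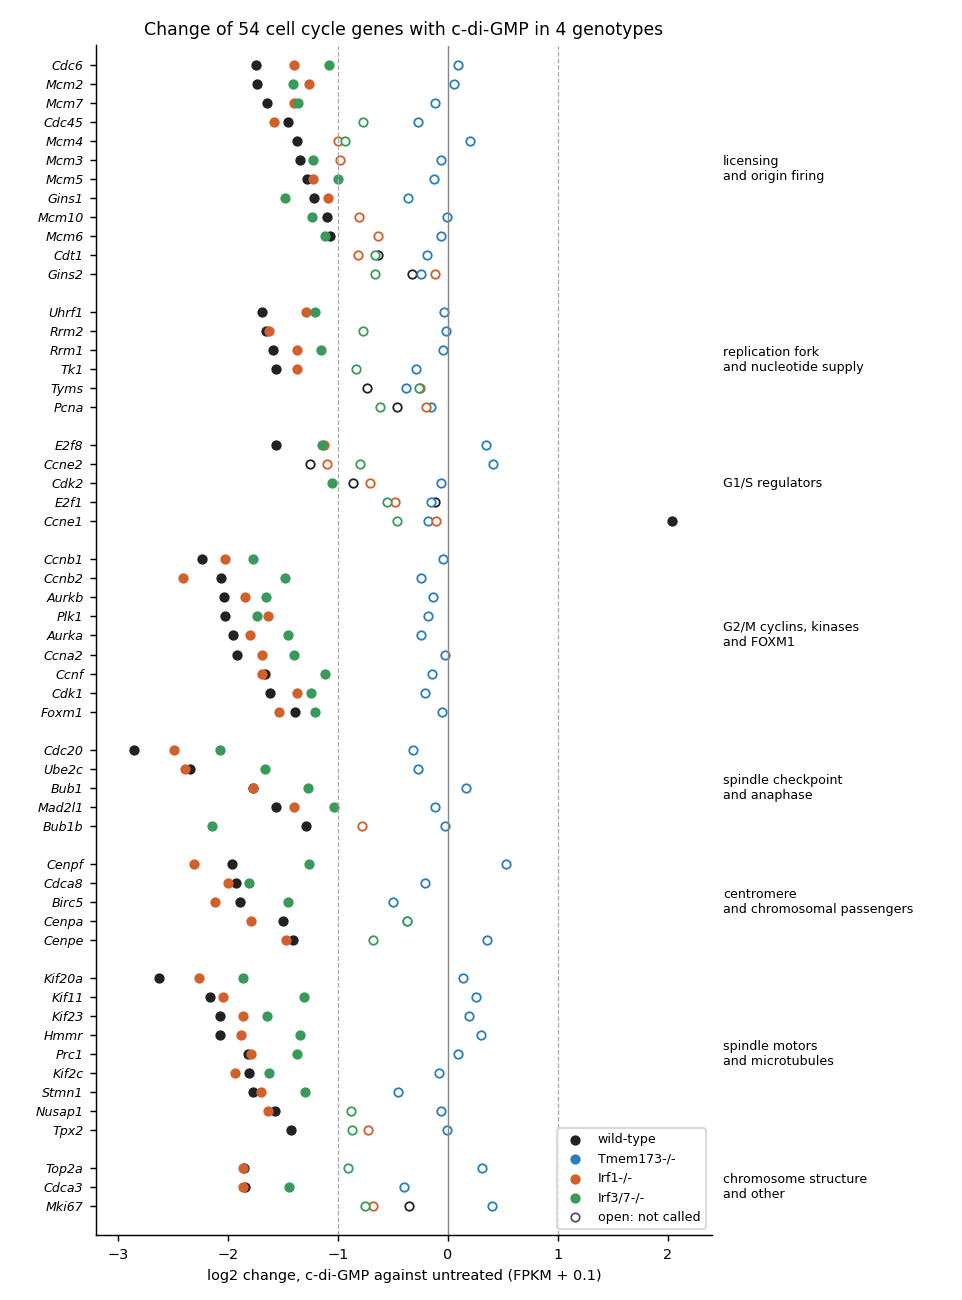
Log2 change of each of the 54 genes with c-di-GMP against untreated BMDCs of the same genotype (x axis, FPKM + 0.1), with 1 point per genotype, filled where the gene was called and open where it was not; dashed lines mark a 2-fold change. Genes are grouped by function, and the points of wild-type, Irf1-/- and Irf3/7-/- BMDCs lie to the left of 0 for all genes except Ccne1, which is at 2.04 in wild-type, while those of Tmem173-/- lie between -0.50 and 0.53.

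**Figure D2:**
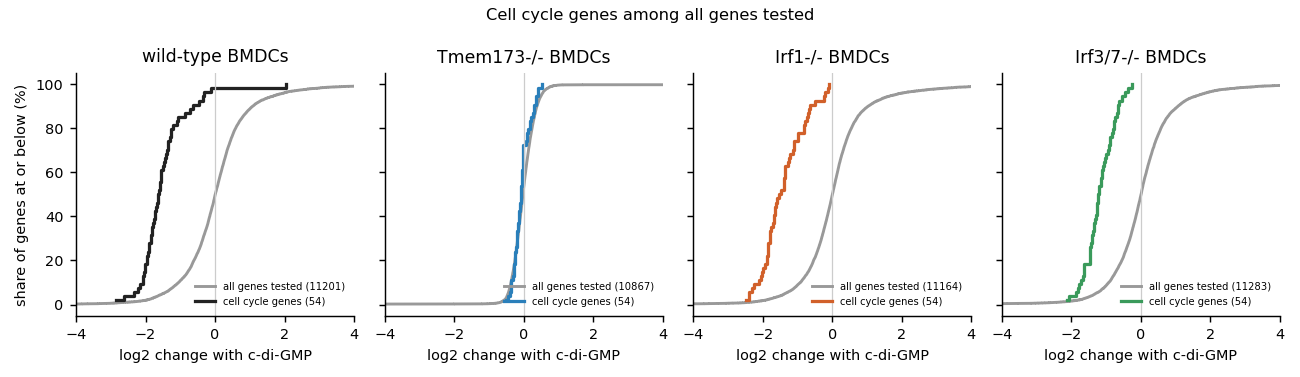
Share of genes (y axis, percent) at or below each log2 change with c-di-GMP (x axis), for the 54 cell cycle genes (coloured) and for all genes tested (grey) in each genotype. The coloured curve stands left of the grey one in wild-type, Irf1-/- and Irf3/7-/- BMDCs, with medians of -1.63, -1.50 and -1.22, and runs along it in Tmem173-/- with a median of -0.07.

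By function, the G2/M and mitosis genes showed the larger changes. Of these 31 genes, 30 fell in wild-type BMDCs, 28 in *Irf1*-/- and 25 in *Irf3/7*-/-, with median log2 changes of -1.85, -1.80 and -1.38. Of the 23 genes of G1/S and replication, 15 fell in wild-type BMDCs, 11 in *Irf1*-/- and 12 in *Irf3/7*-/-, with median log2 changes of -1.28, -1.09 and -1.0. The difference between these sets of genes was not tested, since genes are not replicates. In the sentences on single genes that follow, the 4 log2 changes are given in the order wild-type, *Tmem173*-/-, *Irf1*-/- and *Irf3/7*-/-.

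Origin licensing and firing was represented by 12 genes, of which 10 fell in wild-type, 6 in *Irf1*-/- and 8 in *Irf3/7*-/- BMDCs. *Mcm6*, a subunit of the replicative helicase, was at 53.6 and 25.4 FPKM in wild-type, 60.3 and 57.5 FPKM in *Tmem173*-/-, 48.1 and 30.9 FPKM in *Irf1*-/-, and 52.7 and 24.2 FPKM in *Irf3/7*-/-. *Mcm3*, another subunit, was at 50.3 and 19.7 FPKM in wild-type, 50.8 and 48.5 FPKM in *Tmem173*-/-, 44.2 and 22.3 FPKM in *Irf1*-/-, and 51.4 and 21.8 FPKM in *Irf3/7*-/-. For *Mcm2* the levels were 28.6 and 8.54 FPKM in wild-type, 26.8 and 27.8 FPKM in *Tmem173*-/-, 24.4 and 10.1 FPKM in *Irf1*-/-, and 30.0 and 11.2 FPKM in *Irf3/7*-/-. In all 3 helicase genes the treated values of wild-type, *Irf1*-/- and *Irf3/7*-/- BMDCs were the lowest of the 8, and their log2 changes were -1.08, -0.07, -0.64 and -1.12 for *Mcm6*, -1.35, -0.07, -0.98 and -1.23 for *Mcm3* and -1.73, 0.05, -1.26 and -1.41 for *Mcm2*. *Cdc45*, which joins the helicase as it fires, was at 15.8 and 5.67 FPKM in wild-type, 18.8 and 15.5 FPKM in *Tmem173*-/-, 12.4 and 4.07 FPKM in *Irf1*-/-, and 13.9 and 8.14 FPKM in *Irf3/7*-/-. *Gins1* and *Gins2* encode partners in the same active helicase, and *Gins1* was at 10.4 and 4.39 FPKM in wild-type, 16.5 and 12.8 FPKM in *Tmem173*-/-, 7.45 and 3.44 FPKM in *Irf1*-/-, and 8.22 and 2.89 FPKM in *Irf3/7*-/-. Untreated *Tmem173*-/- held the highest of these 8 values. *Gins2* moved less, at 26.6 and 21.2 FPKM in wild-type, 32.6 and 27.5 FPKM in *Tmem173*-/-, 27.8 and 25.6 FPKM in *Irf1*-/-, and 23.2 and 14.6 FPKM in *Irf3/7*-/-, and its wide intervals, 14.8 to 38.2 FPKM in untreated and 8.67 to 33.6 in treated wild-type, overlapped. *Cdt1*, the licensing factor that loads the MCM ring, was also not called in any genotype, with log2 changes of -0.64, -0.19, -0.82 and -0.66.

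Of the 6 genes of the fork and the nucleotide supply, 4 fell in wild-type BMDCs, 4 in *Irf1*-/- and 2 in *Irf3/7*-/-. *Pcna*, the sliding clamp of the DNA polymerases, had the highest FPKM of all 54 genes, at 197 and 143 FPKM in wild-type, 262 and 234 FPKM in *Tmem173*-/-, 193 and 168 FPKM in *Irf1*-/-, and 206 and 134 FPKM in *Irf3/7*-/-. Its log2 changes of -0.47, -0.16, -0.20 and -0.62 were not called. *Rrm2*, the ribonucleotide reductase subunit whose level follows S phase, was at 68.5 and 21.7 FPKM in wild-type, 73.0 and 72.1 FPKM in *Tmem173*-/-, 58.9 and 18.9 FPKM in *Irf1*-/-, and 62.6 and 36.6 FPKM in *Irf3/7*-/-. The treated *Irf3/7*-/- value lay between the other low values and the untreated ones. *Tk1*, thymidine kinase, was at 23.6 and 7.91 FPKM in wild-type, 35.5 and 29.1 FPKM in *Tmem173*-/-, 18.4 and 7.07 FPKM in *Irf1*-/-, and 21.3 and 11.9 FPKM in *Irf3/7*-/-. Its log2 changes were -1.56, -0.29, -1.37 and -0.83. *Tyms*, thymidylate synthase, was at 13.3 and 7.93 FPKM in wild-type, 12.4 and 9.56 FPKM in *Tmem173*-/-, 10.9 and 9.11 FPKM in *Irf1*-/-, and 10.7 and 8.91 FPKM in *Irf3/7*-/-, and none of these differences was called. Thus *Pcna* and *Tyms* kept 72.3% and 59.8% of their untreated FPKM in wild-type BMDCs, where *Rrm2* kept 31.7% and *Tk1* 33.6%.

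The G1/S regulators held the 1 gene that went the other way. *Ccne1*, cyclin E1, was at 27.4 and 113 FPKM in wild-type, 26.1 and 22.9 FPKM in *Tmem173*-/-, 23.6 and 21.9 FPKM in *Irf1*-/-, and 21.8 and 15.8 FPKM in *Irf3/7*-/-. The treated wild-type value stood above the other 7, with an interval of 85.8 to 139 FPKM against 21.0 to 33.7 FPKM in untreated wild-type, and the log2 changes were 2.04, -0.19, -0.11 and -0.46. *Ccne1* was called lower in each treated knockout against treated wild-type BMDCs, by a log2 difference of -2.29 in *Tmem173*-/-, -2.35 in *Irf1*-/- and -2.83 in *Irf3/7*-/-; these 3 differences share the treated wild-type value. No other measured gene with a single annotated position overlaps *Ccne1*. *Ccne2*, cyclin E2, was at 3.93 and 1.59 FPKM in wild-type, 4.34 and 5.80 FPKM in *Tmem173*-/-, 3.87 and 1.75 FPKM in *Irf1*-/-, and 3.61 and 2.04 FPKM in *Irf3/7*-/-. Its log2 change of -1.26 in wild-type was not called because the intervals overlapped. *Cdk2*, the kinase that both cyclins activate, was at 26.4 and 14.5 FPKM in wild-type, 31.5 and 30.1 FPKM in *Tmem173*-/-, 27.0 and 16.4 FPKM in *Irf1*-/-, and 22.6 and 10.8 FPKM in *Irf3/7*-/-. It fell only in *Irf3/7*-/- BMDCs by the call rule, with log2 changes of -0.86, -0.06, -0.71 and -1.05. *E2f1*, an activating E2F factor, was at 10.4 and 9.55 FPKM in wild-type, 14.6 and 13.2 FPKM in *Tmem173*-/-, 8.86 and 6.30 FPKM in *Irf1*-/-, and 9.39 and 6.36 FPKM in *Irf3/7*-/- and was not called. *E2f8*, a repressing E2F factor, fell in wild-type, *Irf1*-/- and *Irf3/7*-/- BMDCs, with log2 changes of -1.56, 0.35, -1.13 and -1.15.

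**Figure D3:**
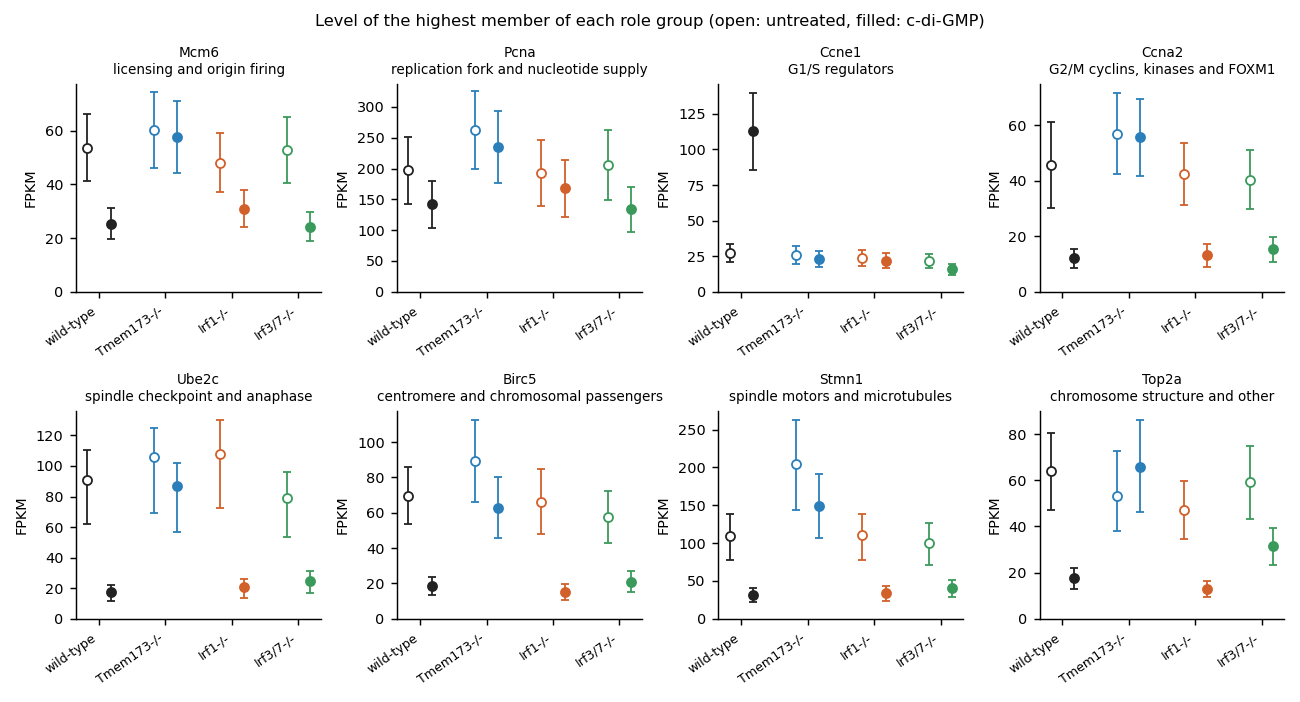
FPKM (y axis, from 0) of the gene with the highest mean level in each of the 8 functional groups, in 4 genotypes (x axis), untreated (open) and with c-di-GMP (filled); bars are the authors' confidence bounds and each point is 1 deposited value made from 2 samples. Ccne1 stands at 113 FPKM in treated wild-type BMDCs and between 15.8 and 27.4 FPKM elsewhere, while Ube2c, Birc5, Stmn1 and Ccna2 are low in treated wild-type, Irf1-/- and Irf3/7-/- BMDCs and high in both Tmem173-/- conditions.

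All 9 genes of the G2/M cyclins, kinases and FOXM1 fell in the 3 genotypes that have STING, and none was called in *Tmem173*-/-. *Ccna2*, cyclin A2, was at 45.7 and 12.0 FPKM in wild-type, 57.0 and 55.8 FPKM in *Tmem173*-/-, 42.6 and 13.2 FPKM in *Irf1*-/-, and 40.5 and 15.3 FPKM in *Irf3/7*-/-. *Cdk1*, the mitotic kinase, was at 35.2 and 11.4 FPKM in wild-type, 44.6 and 38.7 FPKM in *Tmem173*-/-, 33.4 and 12.8 FPKM in *Irf1*-/-, and 28.5 and 11.9 FPKM in *Irf3/7*-/-. *Ccnb2*, one of its B-type cyclins, was at 31.4 and 7.44 FPKM in wild-type, 40.7 and 34.4 FPKM in *Tmem173*-/-, 33.8 and 6.30 FPKM in *Irf1*-/-, and 25.9 and 9.23 FPKM in *Irf3/7*-/-. *Aurka*, a kinase of the spindle poles, was at 25.0 and 6.38 FPKM in wild-type, 28.9 and 24.4 FPKM in *Tmem173*-/-, 25.5 and 7.24 FPKM in *Irf1*-/-, and 20.0 and 7.24 FPKM in *Irf3/7*-/-. In these 4 genes the treated values of the 3 genotypes with STING lay below all other values. Their log2 changes were -1.92, -0.03, -1.69 and -1.40 for *Ccna2*, -1.62, -0.21, -1.37 and -1.25 for *Cdk1*, -2.06, -0.24, -2.41 and -1.48 for *Ccnb2* and -1.95, -0.24, -1.80 and -1.45 for *Aurka*. *Foxm1*, the factor itself, had log2 changes of -1.39, -0.06, -1.53 and -1.21, *Plk1*, a kinase of mitotic entry, of -2.03, -0.18, -1.64 and -1.74, and *Ccnb1*, the other B-type cyclin, of -2.24, -0.04, -2.03 and -1.77.

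The 5 genes of the spindle checkpoint and anaphase all fell in wild-type BMDCs, and they held 2 of the 3 largest falls. *Cdc20*, the activator of the anaphase-promoting complex, was at 30.4 and 4.12 FPKM in wild-type, 32.5 and 26.0 FPKM in *Tmem173*-/-, 32.5 and 5.69 FPKM in *Irf1*-/-, and 27.4 and 6.42 FPKM in *Irf3/7*-/-. The log2 changes of *Cdc20* were -2.85, -0.32, -2.49 and -2.08. Its intervals were wide, 17.9 to 42.9 FPKM untreated and 0.219 to 8.22 treated in wild-type, but did not overlap. *Ube2c*, the ubiquitin-conjugating enzyme of the same complex, was at 90.9 and 17.8 FPKM in wild-type, 106 and 87.1 FPKM in *Tmem173*-/-, 108 and 20.5 FPKM in *Irf1*-/-, and 79.3 and 24.9 FPKM in *Irf3/7*-/-. Its log2 changes were -2.35, -0.28, -2.39 and -1.67. *Mad2l1*, which encodes the checkpoint protein MAD2, was at 35.1 and 11.8 FPKM in wild-type, 41.9 and 38.6 FPKM in *Tmem173*-/-, 34.1 and 12.9 FPKM in *Irf1*-/-, and 33.0 and 16.0 FPKM in *Irf3/7*-/-. *Bub1b*, which encodes the checkpoint protein BUBR1, was at 21.9 and 8.92 FPKM in wild-type, 29.4 and 28.9 FPKM in *Tmem173*-/-, 22.9 and 13.3 FPKM in *Irf1*-/-, and 19.8 and 4.42 FPKM in *Irf3/7*-/-. Here the knockouts stood on either side of wild-type, with 58.0% of the untreated level kept in *Irf1*-/-, 40.7% in wild-type and 22.3% in *Irf3/7*-/-, and *Bub1b* was not called in *Irf1*-/-.

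Of the 5 centromere and chromosomal passenger genes, all fell in wild-type and in *Irf1*-/- and 3 fell in *Irf3/7*-/-. *Birc5*, survivin of the chromosomal passenger complex, was at 69.6 and 18.7 FPKM in wild-type, 89.2 and 62.9 FPKM in *Tmem173*-/-, 66.3 and 15.2 FPKM in *Irf1*-/-, and 57.6 and 20.9 FPKM in *Irf3/7*-/-. *Cdca8*, borealin of the same complex, was at 46.7 and 12.2 FPKM in wild-type, 55.4 and 47.9 FPKM in *Tmem173*-/-, 55.5 and 13.8 FPKM in *Irf1*-/-, and 40.0 and 11.3 FPKM in *Irf3/7*-/-. Both were low in the 3 treated conditions with STING, with log2 changes of -1.89, -0.50, -2.12 and -1.46 and -1.93, -0.21, -2.00 and -1.81. *Cenpa*, the histone variant that marks centromeres, was at 43.7 and 15.3 FPKM in wild-type, 61.2 and 47.4 FPKM in *Tmem173*-/-, 48.4 and 13.9 FPKM in *Irf1*-/-, and 36.0 and 27.8 FPKM in *Irf3/7*-/-. Its change in *Irf3/7*-/- was not called. *Cenpf* was the lowest of the 54 genes, at 3.16 and 0.733 FPKM in wild-type, 3.21 and 4.68 FPKM in *Tmem173*-/-, 3.37 and 0.601 FPKM in *Irf1*-/-, and 3.03 and 1.21 FPKM in *Irf3/7*-/-. Treated *Tmem173*-/- held the highest value.

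The spindle motor and microtubule genes numbered 9, of which 9 fell in wild-type, 8 in *Irf1*-/- and 7 in *Irf3/7*-/- BMDCs. *Stmn1*, stathmin, which destabilises microtubules, was at 109.7 and 32.0 FPKM in wild-type, 205 and 149 FPKM in *Tmem173*-/-, 111 and 34.0 FPKM in *Irf1*-/-, and 100.5 and 40.6 FPKM in *Irf3/7*-/-. *Kif20a*, a motor of late mitosis and cytokinesis, was at 17.0 and 2.66 FPKM in wild-type, 19.5 and 21.4 FPKM in *Tmem173*-/-, 19.3 and 3.93 FPKM in *Irf1*-/-, and 13.9 and 3.75 FPKM in *Irf3/7*-/-. *Kif11*, the motor that pushes spindle poles apart, was at 21.0 and 4.59 FPKM in wild-type, 19.4 and 23.3 FPKM in *Tmem173*-/-, 18.9 and 4.50 FPKM in *Irf1*-/-, and 18.9 and 7.57 FPKM in *Irf3/7*-/-. *Prc1*, which bundles the central spindle, was at 24.8 and 6.94 FPKM in wild-type, 29.6 and 31.5 FPKM in *Tmem173*-/-, 26.1 and 7.47 FPKM in *Irf1*-/-, and 21.0 and 8.04 FPKM in *Irf3/7*-/-. *Kif20a* had the second largest fall in wild-type, with log2 changes of -2.63, 0.14, -2.27 and -1.87, and those of *Kif11* were -2.17, 0.26, -2.04 and -1.31. The wild-type intervals of *Kif20a* were wide, 10.0 to 24.0 FPKM untreated and 0.740 to 4.59 treated, but did not overlap. *Tpx2*, which activates Aurora A on the spindle, was at 21.4 and 7.87 FPKM in wild-type, 22.5 and 22.3 FPKM in *Tmem173*-/-, 22.1 and 13.3 FPKM in *Irf1*-/-, and 19.3 and 10.5 FPKM in *Irf3/7*-/-. It fell in wild-type only by the call rule, with log2 changes of -1.43, -0.01, -0.73 and -0.88.

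Of the last 3 genes, *Top2a*, the topoisomerase that untangles chromosomes, was at 63.8 and 17.6 FPKM in wild-type, 53.1 and 65.8 FPKM in *Tmem173*-/-, 47.2 and 12.9 FPKM in *Irf1*-/-, and 59.1 and 31.4 FPKM in *Irf3/7*-/-. *Cdca3*, a gene of mitotic entry, was at 36.3 and 10.0 FPKM in wild-type, 58.8 and 44.4 FPKM in *Tmem173*-/-, 38.0 and 10.3 FPKM in *Irf1*-/-, and 29.6 and 10.8 FPKM in *Irf3/7*-/-. *Mki67*, which encodes the proliferation marker Ki-67, was at 26.8 and 21.0 FPKM in wild-type, 31.0 and 41.0 FPKM in *Tmem173*-/-, 27.7 and 17.2 FPKM in *Irf1*-/-, and 26.5 and 15.6 FPKM in *Irf3/7*-/-. *Top2a* fell in wild-type and *Irf1*-/- and *Cdca3* fell in all 3 genotypes with STING, whereas *Mki67* kept 78.1% of its untreated FPKM in wild-type, 62.3% in *Irf1*-/- and 58.9% in *Irf3/7*-/-, with overlapping intervals.

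Before treatment none of the 54 genes was called between untreated *Tmem173*-/- and untreated wild-type BMDCs, where 5.04% of 11101 genes tested were called higher and 5.95% lower. The count was also 0 for untreated *Irf1*-/- against wild-type, with 1.26% of 11017 genes higher and 3.52% lower, and for untreated *Irf3/7*-/-, with 1.17% of 11004 genes higher and 0.863% lower. The median log2 differences of the cell cycle genes were 0.19 in *Tmem173*-/-, -0.08 in *Irf1*-/- and -0.15 in *Irf3/7*-/-. In *Tmem173*-/- the largest difference was that of *Stmn1*, at 0.90, and its intervals, 144 to 262 against 78.2 to 139 FPKM, did not overlap. It was followed by *Cdca3* at 0.69 and *Gins1* at 0.66, and the lowest was *Top2a* at -0.27. In untreated *Irf1*-/- the differences ran from -0.47 for *Gins1* to 0.25 for *Cdca8*, and in *Irf3/7*-/- from -0.33 for *Gins1* to 0.07 for *Pcna*.

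After treatment, *Tmem173*-/- BMDCs stood far above wild-type in most of the genes. Of the 54, 47 were higher and 1, *Ccne1*, was lower, beside 12.9% of 11318 genes tested called higher and 13.5% lower, with a median log2 difference of 1.78. The largest differences were 2.96 for *Kif20a*, 2.63 for *Cdc20* and 2.52 for *Cenpf*, and the genes that were not called were *Tyms*, *Gins2*, *E2f1*, *Cdt1*, *Pcna* and *Mki67*. Between the same conditions the neutrophil marker sum was 14682 against 1917 FPKM. In the untreated cells it was 20114 against 4102 FPKM, and the part of neutrophils in these differences was not tested.

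Between treated *Irf1*-/- or treated *Irf3/7*-/- BMDCs and treated wild-type, 1 of these genes was called. In *Irf1*-/- *Ccne1* alone was called of 53 genes tested, beside 2.65% of 11079 genes higher and 4.91% lower, and the median log2 difference was 0.11. The next lowest were *E2f1* at -0.59 and *Cdc45* at -0.47, and the highest were *Tpx2* at 0.75, *Bub1b* at 0.57 and *Kif20a* at 0.54. In *Irf3/7*-/- *Ccne1* was again the 1 gene called, beside 4.61% of 11209 genes higher and 2.69% lower, and the median log2 difference was 0.29. *Bub1b* was just inside the threshold, at 4.42 against 8.92 FPKM with a log2 difference of -0.997, and *Gins1* was at -0.59. The highest were *Cenpa* at 0.85, *Top2a* at 0.83 and *Rrm2* at 0.75, of which only *Top2a* had separate intervals. The T and NK cell marker sum was 1267 FPKM in treated *Irf3/7*-/- against 429 FPKM in treated wild-type. Of the early progenitor markers, 4 of 6 tested were called higher in the same comparison and none lower. The part of these cells in the differences was not tested. In the treated *Irf3/7*-/- condition *Irf3* went against the label, but reads left in a knockout check nothing, since the deleted part is not given.

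Genes of the same processes outside the 54 were read from lists of their own. Beside them, 9.96% of all genes tested were called lower in wild-type, 7.81% in *Irf1*-/- and 7.68% in *Irf3/7*-/-. Of 34 further replication genes, 19 fell in wild-type BMDCs, 16 in *Irf1*-/- and 7 in *Irf3/7*-/-, none rose, and none was called in *Tmem173*-/-, with median log2 changes of -1.13, -1.02, -0.82 and -0.12. *Gmnn*, geminin, which holds back origin licensing, was at 39.2 and 15.0 FPKM in wild-type, 54.4 and 43.0 FPKM in *Tmem173*-/-, 32.7 and 14.4 FPKM in *Irf1*-/-, and 30.8 and 13.4 FPKM in *Irf3/7*-/-. Of 51 further mitosis genes, 41 fell in wild-type, 38 in *Irf1*-/- and 26 in *Irf3/7*-/-, and 1 rose in each of these genotypes. *Cks1b*, a small CDK-binding subunit, was at 89.9 and 22.5 FPKM in wild-type, 101 and 82.1 FPKM in *Tmem173*-/-, 98.7 and 23.9 FPKM in *Irf1*-/-, and 75.2 and 27.2 FPKM in *Irf3/7*-/-. The gene that rose was *Pttg1*, securin, the inhibitor of separase, at 29.8 and 95.9 FPKM in wild-type, 28.3 and 22.2 FPKM in *Tmem173*-/-, 26.7 and 116 FPKM in *Irf1*-/-, and 23.2 and 79.3 FPKM in *Irf3/7*-/-. *Pttg1* thus rose in *Irf1*-/- and *Irf3/7*-/- BMDCs as well as in wild-type, whereas *Ccne1* rose in wild-type only, and that difference between genotypes was not tested.

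Among upstream regulators, genes were called in both directions. Of 7 CDK inhibitor genes, 6 were tested, and 1 rose and 1 fell in wild-type BMDCs. The same counts held in *Irf1*-/-, while in *Irf3/7*-/- 2 rose and none fell. Over all genes tested, 10.5% were called higher and 9.96% lower in wild-type. These shares were 9.67% and 7.81% in *Irf1*-/-, and 10.2% and 7.68% in *Irf3/7*-/-. Counts as small as those of the CDK inhibitors cannot be set apart from such shares. *Cdkn1a*, which encodes the p21 inhibitor, was at 416 and 834 FPKM in wild-type, 225 and 209.9 FPKM in *Tmem173*-/-, 365 and 1005 FPKM in *Irf1*-/-, and 480.5 and 897 FPKM in *Irf3/7*-/-. Its log2 changes were 1.01, -0.10, 1.46 and 0.90, and it was called in wild-type and *Irf1*-/-. *Cdkn1b*, which encodes p27, was at 11.1 and 17.3 FPKM in wild-type, 12.2 and 12.8 FPKM in *Tmem173*-/-, 8.74 and 15.1 FPKM in *Irf1*-/-, and 8.56 and 20.1 FPKM in *Irf3/7*-/- and was called in *Irf3/7*-/- only. *Cdkn2c*, which encodes the p18 inhibitor of CDK4 and CDK6, fell in wild-type and *Irf1*-/-, at 7.53 and 2.11 FPKM in wild-type, 15.6 and 12.0 FPKM in *Tmem173*-/-, 9.64 and 2.55 FPKM in *Irf1*-/-, and 8.73 and 5.59 FPKM in *Irf3/7*-/-. *Cdkn2a*, whose products act on CDK4 and on MDM2, was at 85.2 and 109 FPKM in wild-type, 1.5 and 1.52 FPKM in *Tmem173*-/-, 86.7 and 169 FPKM in *Irf1*-/-, and 85.5 and 103 FPKM in *Irf3/7*-/-. The 2 *Tmem173*-/- values were far below the other 6.

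Among the 8 genes of the G1 cyclins, CDK4/6 and MYC, 7 were tested in wild-type, of which 2 fell and 1 rose. Over all genes tested in that genotype, 9.96% were called lower and 10.5% higher. *Myc*, a driver of growth and of G1, was at 44.1 and 9.03 FPKM in wild-type, 40.1 and 40.0 FPKM in *Tmem173*-/-, 45.2 and 15.4 FPKM in *Irf1*-/-, and 42.8 and 15.8 FPKM in *Irf3/7*-/-. *Cdk4*, the kinase partner of the D cyclins, was at 120.1 and 47.6 FPKM in wild-type, 124 and 102 FPKM in *Tmem173*-/-, 115 and 53.8 FPKM in *Irf1*-/-, and 114 and 51.1 FPKM in *Irf3/7*-/-. Both fell in wild-type, *Irf1*-/- and *Irf3/7*-/- BMDCs, with log2 changes of -2.27, -0.01, -1.55 and -1.43 and -1.33, -0.28, -1.09 and -1.15. *Ccnd2*, cyclin D2, rose in wild-type and *Irf1*-/- but was not called in *Irf3/7*-/-, at 189.8 and 394 FPKM in wild-type, 47.8 and 68.4 FPKM in *Tmem173*-/-, 114 and 478 FPKM in *Irf1*-/-, and 151 and 180.1 FPKM in *Irf3/7*-/-, and its untreated *Tmem173*-/- value was the lowest of the 8. *Ccnd1*, cyclin D1, fell in *Irf3/7*-/- only, at 31.3 and 16.9 FPKM in wild-type, 15.2 and 14.8 FPKM in *Tmem173*-/-, 20.8 and 32.3 FPKM in *Irf1*-/-, and 18.5 and 4.22 FPKM in *Irf3/7*-/-. Beside 9.96% of all genes tested called lower and 10.5% higher, 4 of 16 RB and E2F family genes fell and none rose in wild-type. They were *Mybl2*, which encodes B-MYB, *E2f2*, *E2f6* and *E2f7*, and *Mybl2* was at 12.3 and 3.53 FPKM in wild-type, 12.5 and 11.4 FPKM in *Tmem173*-/-, 13.7 and 4.55 FPKM in *Irf1*-/-, and 10.7 and 4.34 FPKM in *Irf3/7*-/-.

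Of 12 p53 target and growth arrest genes, 4 rose and 1 fell in wild-type BMDCs, 3 rose in *Irf1*-/- and 5 in *Irf3/7*-/-, and none was called in *Tmem173*-/-. Over all genes tested, 10.5% were called higher in wild-type, 9.67% in *Irf1*-/- and 10.2% in *Irf3/7*-/-, and 9.96% lower in wild-type. The list is short, and its counts were not tested against such shares. In wild-type 7 of the 12 genes were not called, and the genes that follow are the 4 that rose there. *Mdm2*, the ubiquitin ligase of p53, was at 52.3 and 159 FPKM in wild-type, 37.5 and 40.8 FPKM in *Tmem173*-/-, 41.8 and 132 FPKM in *Irf1*-/-, and 61.5 and 194 FPKM in *Irf3/7*-/-. *Ccng2*, a cyclin linked with arrest, was at 13.4 and 53.4 FPKM in wild-type, 15.2 and 16.8 FPKM in *Tmem173*-/-, 10.5 and 36.2 FPKM in *Irf1*-/-, and 7.32 and 32.7 FPKM in *Irf3/7*-/-. *Gadd45b*, a stress gene, was at 52.5 and 182 FPKM in wild-type, 26.1 and 23.6 FPKM in *Tmem173*-/-, 41.6 and 155 FPKM in *Irf1*-/-, and 41.4 and 176 FPKM in *Irf3/7*-/-. These 3 genes rose in wild-type, *Irf1*-/- and *Irf3/7*-/-. *Gadd45a*, of the same family, rose in wild-type and *Irf3/7*-/- and stayed level in *Irf1*-/-, at 8.44 and 20.2 FPKM in wild-type, 10.1 and 8.39 FPKM in *Tmem173*-/-, 13.2 and 13.2 FPKM in *Irf1*-/-, and 8.44 and 25.7 FPKM in *Irf3/7*-/-.

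**Figure D4:**
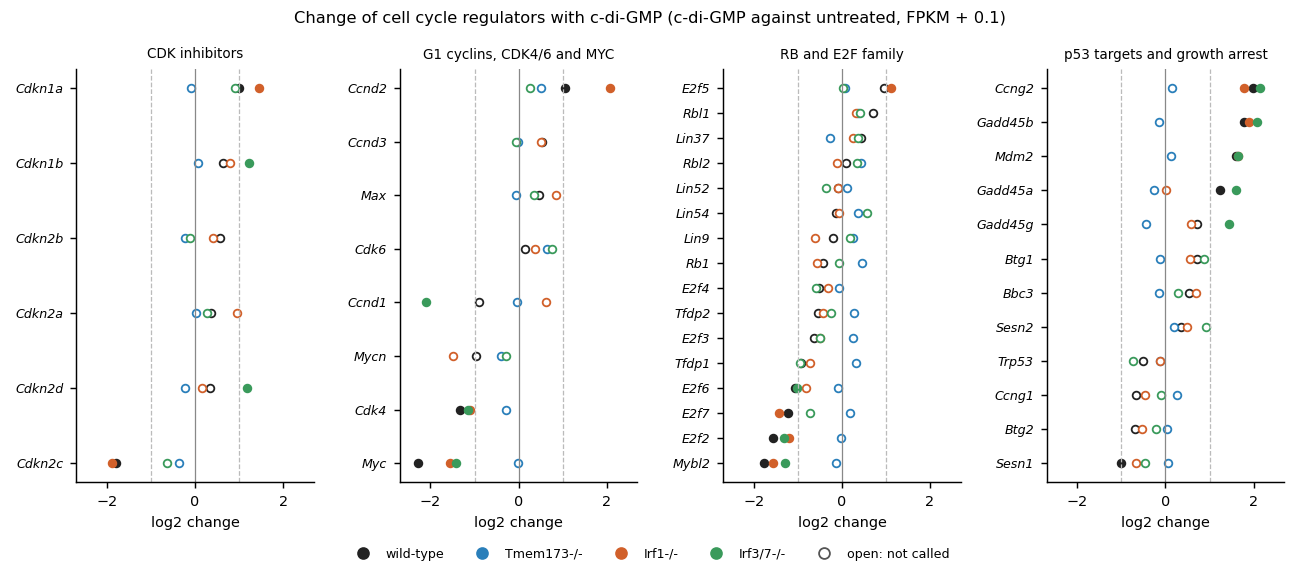
Log2 change with c-di-GMP (x axis, FPKM + 0.1) of 4 lists of cell cycle regulators outside the 54 genes, those that reached 1 FPKM in at least 1 condition, with 1 point per genotype, filled where called; dashed lines mark a 2-fold change. Myc and Cdk4 lie at -2.27 and -1.33 in wild-type BMDCs and Ccng2 and Gadd45b at 1.99 and 1.79, while the Tmem173-/- points lie between -0.44 and 0.65.

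The promoters of the genes carry letters that differ between the functional groups. RefSeq promoters on GRCm38.p6, from 250 bases before to 50 bases after the start, were matched by symbol for 44 of the 54 genes, with 47 promoters. They were searched on both strands for TTTCCCGC, TTTCGCGC, TTTGGCGC or TTTGCCGC (E2F letters), for TTTGAA or TTCGAA (letters of the CHR element, where the MuvB complex binds), for CCAAT (NF-Y letters) and for TTTC and TTTC parted by any 2 bases (interferon-stimulated response element letters). The CHR letters were in 21 of 26 promoters of the G2/M and mitosis genes and in 4 of 21 promoters of the G1/S and replication genes, beside 19.2% of all 32851 promoters and 14.1% of the 11213 promoters of genes at 1 FPKM or more. The E2F letters were in 8 of 21 promoters of G1/S and replication and in 1 of 26 of G2/M and mitosis, that of *Cdk1*, beside 2.26% and 3.91%. CCAAT was in 15 of 21 and 22 of 26, beside 37.4% and 37.8%, and the interferon letters in 3 of 47 (*Bub1b*, *Cdca3* and *E2f8*), beside 3.44% and 3.30%. A match is a run of letters and not a bound site.

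The 250 bases before the start are shown for the gene that rose and for the pair with the largest fall in wild-type BMDCs in each of these sets (*Kif20a* left aside), with E2F, CHR and CCAAT letters of either strand in capitals. *Ccne1* lies at chr7:38107491-38107740 (minus strand), *Cdc6* at chr11:98907901-98908150 (plus strand), *Mcm2* at chr6:88898781-88899030 (minus strand), *Cdc20* at chr4:118437344-118437593 (minus strand) and *Ube2c* at chr2:164769679-164769928 (plus strand), all on GRCm38.p6 and written 5′ to 3′ on the strand of the gene. *Cdc6* encodes an origin licensing factor and its log2 changes were -1.74, 0.09, -1.40 and -1.08.
Ccne1: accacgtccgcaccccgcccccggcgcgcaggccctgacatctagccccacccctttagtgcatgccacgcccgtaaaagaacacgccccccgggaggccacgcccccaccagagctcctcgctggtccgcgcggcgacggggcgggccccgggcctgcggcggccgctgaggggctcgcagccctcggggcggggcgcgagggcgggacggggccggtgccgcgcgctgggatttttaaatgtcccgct
Cdc6: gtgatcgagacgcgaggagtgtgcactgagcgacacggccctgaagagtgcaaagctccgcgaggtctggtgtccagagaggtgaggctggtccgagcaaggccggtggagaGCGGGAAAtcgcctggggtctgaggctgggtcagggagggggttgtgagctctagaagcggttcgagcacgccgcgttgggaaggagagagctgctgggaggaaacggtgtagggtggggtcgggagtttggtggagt
Mcm2: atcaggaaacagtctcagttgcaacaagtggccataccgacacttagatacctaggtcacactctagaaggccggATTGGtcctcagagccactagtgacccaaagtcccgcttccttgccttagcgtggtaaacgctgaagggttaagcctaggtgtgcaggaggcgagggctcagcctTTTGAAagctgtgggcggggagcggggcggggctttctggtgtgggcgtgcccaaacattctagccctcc
Cdc20: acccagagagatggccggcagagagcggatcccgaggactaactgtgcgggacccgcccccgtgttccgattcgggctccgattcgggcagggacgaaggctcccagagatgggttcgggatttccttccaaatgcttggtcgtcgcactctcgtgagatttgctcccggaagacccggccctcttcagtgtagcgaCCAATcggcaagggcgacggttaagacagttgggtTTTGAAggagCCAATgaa
Ube2c: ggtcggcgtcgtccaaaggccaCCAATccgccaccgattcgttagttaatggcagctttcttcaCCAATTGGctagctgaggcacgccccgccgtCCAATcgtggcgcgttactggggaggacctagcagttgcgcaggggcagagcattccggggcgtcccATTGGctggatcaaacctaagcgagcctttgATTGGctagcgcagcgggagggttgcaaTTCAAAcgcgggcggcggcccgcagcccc
*Ccne1* held none of the letters in this stretch, *Cdc6* held 1 E2F match, and *Mcm2* 1 CHR and 1 CCAAT match. *Cdc20* held 1 CHR and 2 CCAAT matches close to the start, and *Ube2c* 1 CHR and 6 CCAAT matches.

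Several of the genes overlap another gene of the annotation, and the study's methods state a strand-specific setting for the program Seqmonk but none for Cuffdiff. Among those described above, the overlap holds for *Ccna2*, *Ccne2*, *Cdk2*, *Cdc20*, *Cdca8*, *Gins2*, *Tk1*, *Kif20a*, *Prc1* and *Ube2c*, and reads in the shared stretches cannot be assigned with certainty. *Kif20a* shares 2327 bases with *Cdc23* on the opposite strand, which was at 15.1 and 6.89 FPKM in wild-type. The part of shared reads in the fall of *Kif20a* was not tested.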

How the data were processed

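RNA from 16 libraries, 2 for each of 8 conditions, was sequenced by the authors after stranded mRNA library preparation. Per the labels, Cuffdiff 1.06 and genome build mm9 were used; the study's methods name another Cuffdiff version, and the loci of the deposited table overlap the GRCm38 gene of the same name for 21454 of 21681 genes, and for all 54 described here. The authors deposited 1 table of FPKM values, normalised for transcript length and mapped fragments, with confidence bounds and 1 value per condition. The study's methods state a target depth per sample, but the depth reached by each library is unknown, since no whole-read steps were seen in low values (at most 5.12% of ratios shared a bin of 0.05 log2). The column of treated *Tmem173*-/- BMDCs names the treatment with other letters (GDP) and was taken as treated, as the authors use it in their own supplementary comparison. The 4 columns of a further knockout have no sample in the labels and were not used. Aligner and annotation are not given in the sources used here.

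From the FPKM values, log2 ratios with a pseudocount of 0.1 FPKM were computed over all 23356 genes in 10 comparisons. A call needed more than 2-fold, intervals that do not overlap, at least 1 FPKM in one condition and status OK in both. Python 3.11.15 with numpy 2.4.6, pandas 2.3.3 and matplotlib 3.10.9 was used. The call rule was run on simulated data whose noise was set by the authors' intervals. That run cannot show how the rule behaves with the spread between samples, which is unknown here. Values in all conditions were given for the 2 members of each functional group with the highest mean FPKM, for the 3 largest and 3 smallest differences of each comparison and for any member called against the direction of most; other genes named were chosen after their values were seen. Alternatives were pseudocounts of 1 and 0.01 FPKM, no minimum or a minimum of 5 FPKM, median centring, a 1.5-fold threshold and fold change alone. The genes, lists and letters searched were chosen with earlier results of these data known.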

Additional observations from a re-analysis of the deposited data

Results flagged for a closer look

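A gene was taken up here when it was called in one genotype and its log2 change with c-di-GMP went the other way in another genotype by more than 0.33, the median distance on the log2 scale from these genes' values to their confidence bounds. That limit was set after the values had been seen, and the differences between genotypes were not tested, since each condition has 1 value.

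*Ccne1* had a log2 change of -0.46 in *Irf3/7*-/- BMDCs, where it was not called, against 2.04 in wild-type. *Cenpf* had a log2 change of 0.53 in *Tmem173*-/- BMDCs against -1.97 in wild-type, -2.31 in *Irf1*-/- and -1.26 in *Irf3/7*-/-, and its treated wild-type level was below 1 FPKM. *Cenpe*, which encodes a kinetochore motor, had 0.36 in *Tmem173*-/- against -1.41 in wild-type and -1.47 in *Irf1*-/-. *E2f8* had 0.35 in *Tmem173*-/- against -1.56 in wild-type, -1.13 in *Irf1*-/- and -1.15 in *Irf3/7*-/-. None of the changes in *Tmem173*-/- was called.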

How the results depend on the processing

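Of the 70 counts of called genes recomputed under the alternatives, 66 stayed within 1.5 times the count reported or stayed at 0. Those at 0 belong to the *Tmem173*-/- response and the untreated comparisons, where no ratio can be formed. All 50 medians moved by less than the interval of a typical gene. No called gene changed direction. Counts rose above that range in 4 cases. With a 1.5-fold threshold, 1 gene was called between untreated *Tmem173*-/- and wild-type BMDCs (0 as reported), 2 between treated *Irf1*-/- and wild-type (1 as reported) and 4 between treated *Irf3/7*-/- and wild-type (1 as reported). With a pseudocount of 0.01 FPKM, 2 genes were called between treated *Irf3/7*-/- and wild-type, *Bub1b* being added to *Ccne1*. The *Irf3/7*-/- response went from 37 to 32 called genes with a pseudocount of 1 FPKM. Median centring shifted a condition by at most 0.034 on the log2 scale. No paired analysis was possible because the table holds 1 value per condition, although the labels number the samples, and leaving out a replicate was not possible for the same reason. The depth reached by each library is unknown, so the confidence bounds are the only measure of precision.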
